A study of Mus musculus with 8 samples.

Results

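The mesothelium is the sheet of flat cells that lines the abdominal, chest and heart cavities and covers the organs within them. Its cells come from mesoderm, yet they carry epithelial features: keratin filaments, microvilli and cell junctions. They keep the transcription factor Wt1, and they can turn into fibroblast-like and contractile cells. The 10 genes described here are known as markers of these cells and were read in cultures of mouse bone marrow-derived macrophages, cells of the blood lineage: Upk3b, Upk1b, Lrrn4, Wt1, Bnc1, Gpm6a, Krt7, Krt8, Krt18 and Krt19. The 10 genes were taken by symbol from the 34745 genes of the count table, and all 10 passed the filter on low counts that left 14040 genes for testing. The genes were chosen by their measured counts in these same 8 libraries, with results known, and the choice does not say which of the comparisons below was used. Their levels and differences are therefore a description, with no p-value.

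Bone marrow cells were grown in macrophage colony-stimulating factor (M-CSF) at 20 ng/ml, and messenger RNA was sequenced in 8 libraries, 2 in each of 4 groups. The groups were untreated WT cells, WT cells given R848 at 100 ng/ml for 6 h, untreated KAT8-deficient cells, and KAT8-deficient cells given the same R848 treatment. KAT8 is a histone acetyltransferase that acetylates histone H4, and R848, or resiquimod, is a synthetic ligand that activates the endosomal RNA receptor TLR7. All 4 groups share the bone marrow source and the M-CSF. The file headers call the KAT8-deficient libraries KAT8-cKO. The strain, sex and age of the mice, the deleted exons and any Cre driver are not stated in the sources used here. Neither is it stated if replicates are separate mice or separate dishes, so the spread between them may be technical.

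Total counts ran from 18550977 to 21384532 per library. Kat8 itself was at 16.0 to 18.0 CPM (read count relative to library size, scaled by the trimmed mean of M-values, TMM) in WT libraries and at 8.76 to 10.8 in KAT8-deficient ones, with no overlap. Macrophage markers were abundant in every library: Csf1r, the M-CSF receptor, lay between 707 and 1100 CPM and Cd68, a lysosomal protein, between 1580 and 1960. Ly6g, a neutrophil marker, was at 0 in all 8 libraries. Together the 10 mesothelial marker genes took 0.0459% to 0.0893% of all counts.

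All 10 are protein-coding genes in GENCODE M21 (GRCm38), and none overlaps another gene of the count table that has a position there. Annotated genes absent from the count table were not checked. Their positions are chr5:136038496-136046487 for Upk3b, chr16:38773184-38800328 for Upk1b, chr2:132868305-132880891 for Lrrn4, chr2:105126529-105173616 for Wt1, chr7:81966672-81992292 for Bnc1 and chr8:54954843-55060871 for Gpm6a. The keratin genes lie at chr15:101411043-101430313 for Krt7, chr15:101996698-102004482 for Krt8, chr15:102028180-102032027 for Krt18 and chr11:100140810-100148665 for Krt19. Krt8 and Krt18, whose proteins pair in 1 filament, are neighbours with 23.7 kb between them on opposite strands, and the 10 genes lie on 7 chromosomes. Keratin 8 and keratin 18 genes are known for having processed copies in mammalian genomes, and how reads shared with such copies were counted is not stated in the sources used here.

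The stretches just upstream of 2 of the genes are shown because the genes kept similar profiles over the libraries while their promoters differ in base composition. They come from RefSeq (GRCm38.p6) and lie outside every gene of the count table that has a GENCODE M21 position. Both are written 5′ to 3′ on the gene's own strand, with matches to the SP1-type GC box GGGCGG on either strand in capitals. The Upk3b stretch is chr5:136038346-136038495 on the plus strand and the Bnc1 stretch is chr7:81992300-81992449 on the minus strand.
Upk3b: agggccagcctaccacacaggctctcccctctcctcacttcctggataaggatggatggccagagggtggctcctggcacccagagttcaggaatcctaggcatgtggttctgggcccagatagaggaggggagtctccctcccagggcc
Bnc1: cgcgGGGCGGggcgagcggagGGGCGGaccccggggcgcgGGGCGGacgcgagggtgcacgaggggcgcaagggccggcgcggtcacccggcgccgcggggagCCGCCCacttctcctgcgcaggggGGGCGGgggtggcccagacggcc

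Bnc1 has 5 matches in these 150 bases, and Upk3b has 0. Of the 10 genes, 7 had a RefSeq promoter entry, with 8 start sites between them. In the 250 bases upstream, the GC box was found in 2 of the 8 windows (Bnc1 and Krt7), against 32.7% of all 32851 windows of that length. The AP-1 motif TGANTCA was found in 0 of the 8 windows and in 6.7% of all windows. The TEAD motif GGAATG was found in 3 (Lrrn4, Upk3b and Gpm6a), against 12.6% of all windows, and TATAAA in 1 (Gpm6a), against 12.4%. All motifs were read on both strands. The GC content of the 250 bases ran from 33.6% at 1 of the Gpm6a start sites to 83.6% at Bnc1, and the median window had 52.4%. A match of letters is a description of the sequence only.

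Per length of annotated exon, the uroplakin genes and Lrrn4 were the most abundant of the 10. Mean levels over the 8 libraries, in RPKM ( CPM per 1000 bases of exon), were 58.1 for Upk3b, 52.1 for Lrrn4 and 39.7 for Upk1b. Krt19 followed at 15.9 and Gpm6a at 10.6. The transcription factor genes Bnc1 and Wt1 were at 9.3 and 6.7, and Krt8, Krt18 and Krt7 were at 6.55, 5.64 and 3.81. Upk3b lay above Lrrn4 in 7 of 8 libraries, Gpm6a above Bnc1 in 6 of 8, and Wt1 above Krt8 in only 3 of 8, so these neighbours were not separated beyond their spread. Each of the other 6 neighbouring pairs kept its order in 8 of 8 libraries. The order depends on the length used, which takes in all annotated exons of a gene: 7049 bases for Krt7 against 1437 for Krt18. In mean CPM, Krt7 (26.9) stood above Krt8 (12.8) and Krt18 (8.11). By mean CPM, Upk3b stood at percentile 94.4 of the tested genes and Krt18, the lowest, at percentile 31.5.

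The genes of surface and membrane proteins are described first. Upk3b encodes uroplakin 3B, a membrane protein related to those of the urothelial plaque and known as a marker of mesothelium. In CPM, it was at 173 and 160 in untreated WT cells, 148 and 146 in WT cells given R848, 266 and 246 in KAT8-deficient cells without R848, and 274 and 227 in KAT8-deficient cells given R848. All 4 KAT8-deficient libraries lay above all 4 WT libraries, and the WT libraries given R848 were the lowest. The log2 difference between KAT8-deficient and WT cells was 0.62 (SE 0.092) untreated and 0.77 (SE 0.092) under R848.

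Upk1b, which encodes the tetraspanin uroplakin 1B, was at 74.5 and 73.6 CPM in untreated WT cells and at 58.1 and 53.1 in WT cells given R848. It was at 99.5 and 103 in untreated KAT8-deficient cells and at 104 and 97.7 in those given R848. The groups of the same genotype overlapped in KAT8-deficient cells and were apart in WT cells, where the log2 difference with R848 was -0.41 (SE 0.069). The log2 difference between genotypes was 0.45 (SE 0.068) untreated and 0.86 (SE 0.069) under R848.

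Lrrn4 encodes a leucine-rich repeat membrane protein of neurons and mesothelium. It was at 164 and 183 CPM in untreated WT cells, 134 and 138 in WT cells given R848, 236 and 241 in KAT8-deficient cells left untreated, and 239 and 214 in KAT8-deficient cells given R848. The KAT8-deficient libraries were again all above the WT ones, by a log2 difference of 0.46 (SE 0.077) untreated and 0.74 (SE 0.078) under R848.

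Gpm6a, a membrane glycoprotein best known from neurons, had the largest genotype difference of the 10 genes in both states. Its levels were 26.1 and 22.9 CPM in untreated WT cells, 20.7 and 19.1 in WT cells given R848, 47.3 and 41.4 in KAT8-deficient cells left untreated, and 55.1 and 41.3 in KAT8-deficient cells given R848. The log2 difference was 0.85 (SE 0.14) untreated and 1.27 (SE 0.15) under R848, where Krt18 lay close at 1.23 (SE 0.15). The KAT8-deficient libraries given R848 were far apart, with replicate 1 the highest and replicate 2 the lowest of the 4 KAT8-deficient libraries.

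Wt1 encodes the zinc finger transcription factor of mesothelium, kidney and gonad. It was at 38.3 and 37.5 CPM in untreated WT cells and at 31 and 35.8 in WT cells given R848. KAT8-deficient cells had 51.4 and 48.8 CPM untreated and 47.4 and 41.7 with R848. Wt1 was the gene with the smallest genotype difference in both states, with a log2 difference of 0.40 (SE 0.094) untreated and 0.41 (SE 0.094) under R848. The other 9 genes had a larger difference under R848 than untreated, by 0.14 to 0.62. Untreated, Krt8 lay close to Wt1 at 0.41 (SE 0.15), so these 2 genes were not separated beyond their error.

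Bnc1 encodes basonuclin, a zinc finger protein of keratinocytes, germ cells and mesothelium. Its levels were 37.6 and 36.5 CPM in untreated WT cells, 27.7 and 30.7 in WT cells given R848, 53.9 and 54.0 in KAT8-deficient cells left untreated, and 57.2 and 48.2 in KAT8-deficient cells given R848. All KAT8-deficient libraries were above all WT libraries. The log2 difference between genotypes was 0.54 (SE 0.095) untreated and 0.85 (SE 0.096) under R848.

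The 4 keratin genes encode the intermediate filament proteins of simple epithelia, which mesothelial cells share: Krt8 encodes a type II keratin that pairs with the type I keratin of Krt18, and Krt7 (type II) and Krt19 (type I) add to the same filaments. Krt7 was at 24.3 and 20.7 CPM in untreated WT cells, 15.6 and 16.1 in WT cells given R848, 36.4 and 34.8 in KAT8-deficient cells left untreated, and 38.8 and 28.3 in KAT8-deficient cells given R848. Krt19 was at 23.2 and 25.8, 20.7 and 20.2, 37.1 and 32.4, and 42.8 and 34.5 CPM in the same order of groups. For both genes the WT and KAT8-deficient libraries did not overlap. The log2 difference between genotypes was 0.66 (SE 0.15) untreated and 1.08 (SE 0.15) under R848 for Krt7, and 0.50 (SE 0.12) and 0.92 (SE 0.12) for Krt19.

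Krt8 was at 11.4 and 13.6 CPM in untreated WT cells, 6.93 and 8.68 in WT cells given R848, 17.6 and 15.5 in KAT8-deficient cells left untreated, and 15.4 and 13.5 in KAT8-deficient cells given R848. It was the exception to the separation of genotypes, since replicate 2 of KAT8-deficient cells given R848 (13.5) lay just below replicate 2 of untreated WT cells (13.6). Krt18 was at 8.29 and 6.73, 3.95 and 4.08, 11.7 and 11.3, and 10.1 and 8.73 CPM in the same order. By read count these are the 2 lowest of the 10 genes, with 74 to 336 reads per library. With R848, WT cells differed by a log2 value of -0.67 (SE 0.15) for Krt8 and -0.91 (SE 0.15) for Krt18, the 2 largest differences with R848 among the 10. Between genotypes the log2 difference was 0.41 (SE 0.15) untreated and 0.89 (SE 0.15) under R848 for Krt8, and 0.61 (SE 0.14) and 1.23 (SE 0.15) for Krt18.

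**Figure D1:**
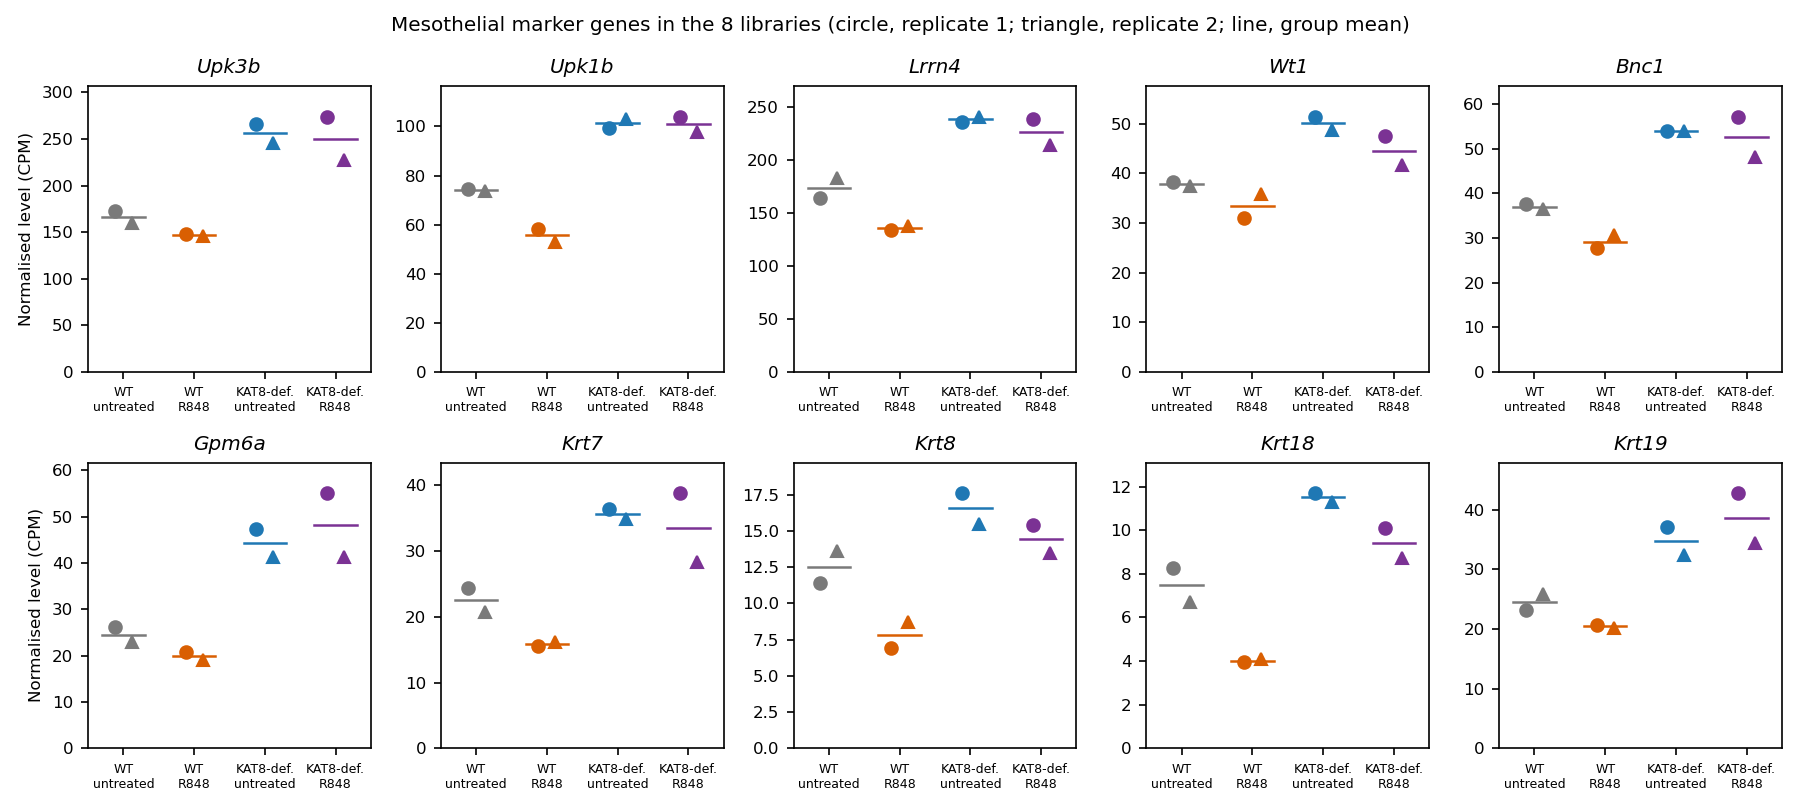
Normalised level (CPM, vertical axis from 0) of each of the 10 mesothelial marker genes in the 8 libraries, by group, with a circle for replicate 1, a triangle for replicate 2 and a line for the group mean (n = 2). In 9 of 10 panels all 4 KAT8-deficient libraries lie above all 4 WT libraries, with Krt8 the exception, and the WT libraries given R848 are the lowest.

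The 4 comparisons share libraries, so their values for the genes are set side by side and are not independent of each other. Between untreated genotypes, all 10 genes were higher in KAT8-deficient cells with no overlap of libraries, where 24.9% of the tested genes lay above in this way. The median log2 difference of the 10 genes was 0.52 (a 1.44-fold difference), with values from 0.40 to 0.85, against a median of -0.0072 over all tested genes. The edgeR quasi-likelihood threshold (Benjamini-Hochberg adjusted p under 0.05) was passed by 7 of the 10, all higher (not by Wt1, Krt8 and Krt19), where 2.91% of the tested genes were called higher. This count rested on the number of libraries: it was 1 without untreated WT replicate 1, 1 without untreated WT replicate 2, 0 without untreated KAT8-deficient replicate 1 and 1 without untreated KAT8-deficient replicate 2, while the median stayed between 0.51 and 0.57. No reading is made of these counts of called genes, since the genes were chosen with results known.

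Under R848, all 10 genes were higher in KAT8-deficient cells without overlap, against 29.2% of the tested genes. Their median log2 difference was 0.87 (1.83-fold), with values from 0.41 for Wt1 to 1.27 for Gpm6a, and the median over all tested genes was -0.0075. All 10 passed the edgeR threshold, where 8.14% of the tested genes were called higher. The count was 8 to 10 when any 1 library was left out, and the median was 0.77 without replicate 1 and 0.97 without replicate 2 of the KAT8-deficient cells given R848.

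With R848 in WT cells, all 10 genes were lower than in untreated cells without overlap, against 28.3% of the tested genes. The median log2 difference was -0.35, a level 1.27-fold lower, and the values ran from -0.18 for Upk3b and Wt1 to -0.91 for Krt18. The edgeR threshold was passed by 5 genes, all lower (Upk1b, Lrrn4, Bnc1, Krt8 and Krt18), where 6.7% of the tested genes were called lower. Leaving out untreated WT replicate 2 or R848-treated WT replicate 1 brought the 5 down to 2, and leaving out R848-treated WT replicate 2 brought them to 3.

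With R848 in KAT8-deficient cells, the median log2 difference of the 10 genes was -0.055, and the values ran from -0.29 for Krt18 to 0.16 for Krt19. The libraries overlapped for 7 genes and were lower without overlap for 3 (Wt1, Krt8 and Krt18), against 23.0% of the tested genes. None of the 10 passed the edgeR threshold, where 0.634% of the tested genes were called in either direction, and the count was 0 as well at an unadjusted p under 0.05, with DESeq2's Wald test and under each other setting and left-out library. The sign of the median rested on the replicates of the treated group, at -0.17 without replicate 1 and 0.062 without replicate 2. The difference between the responses of the genotypes (the KAT8-deficient minus the WT log2 difference) was above 0 for all 10 genes, from 0.011 for Wt1 to 0.62 for Krt18, with a median of 0.41, and 0 of 10 passed the edgeR threshold, where 0.228% of the tested genes were called. At an unadjusted p under 0.05 that count was 5, and with DESeq2's Wald test it was 0, with 1 gene left without an adjusted value. The share of all tested genes at that unadjusted threshold was not taken, so no reading is made of the unadjusted counts.

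**Figure D2:**
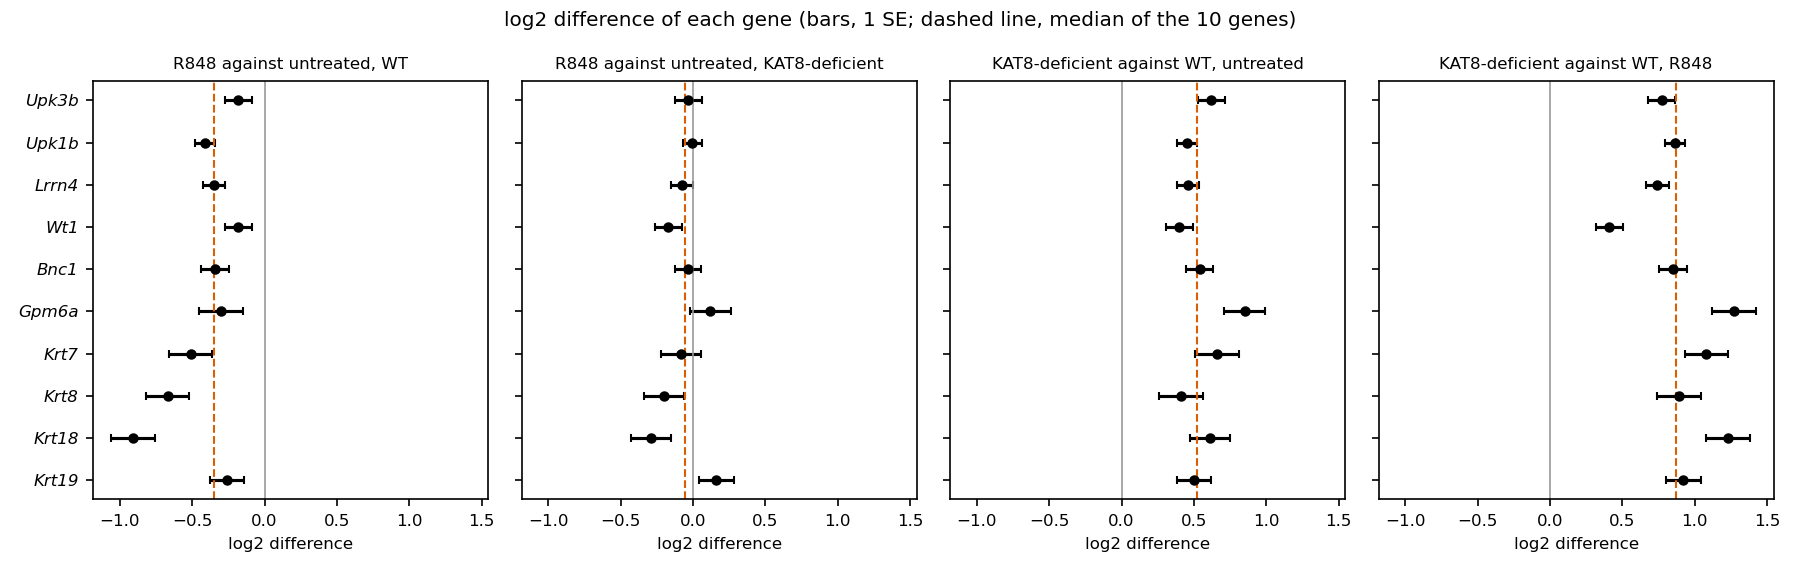
The log2 difference of each gene (horizontal axis, bars 1 SE from the edgeR fit of 8 libraries) in the 4 pairwise comparisons, with the median of the 10 genes as a dashed line. All 10 values lie below 0 for R848 in WT cells and above 0 in both genotype comparisons, and they lie on both sides of 0 for R848 in KAT8-deficient cells.

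The order of group means was the same for 8 of the 10 genes: WT with R848 lowest, then untreated WT, then KAT8-deficient with R848, then untreated KAT8-deficient. Gpm6a and Krt19 had the same order in WT cells, but KAT8-deficient cells with R848 stood highest. The lowest of the 8 libraries was a WT library given R848 for all 10 genes, as it was for 31.1% of the tested genes. All 4 KAT8-deficient libraries lay above all 4 WT libraries for 9 of the 10 genes, as they did for 9.42% of the tested genes.

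If nothing but the number of mesothelial cells per culture differed, and no other cells expressed these genes, each would differ by the same factor. The ratio of any 2 of them would then be the same in every library up to error. Whether other cells of the cultures expressed these genes was not tested. In bulk RNA, fewer cells of a type and less RNA per cell cannot be told apart. For each library, the median of the 10 genes' log2 deviations from their own means was -0.13 and -0.15 in untreated WT cells, -0.55 and -0.50 in WT cells given R848, 0.40 and 0.35 in KAT8-deficient cells left untreated, and 0.44 and 0.20 in KAT8-deficient cells given R848. As a common profile, the 10 genes' mean deviation per library took up 89.0% of the sum of squares of their log2 deviations. The scatter of the genes around it had an SD of 0.16 on the log2 scale. Counting error alone gives 0.066, and replicates of a group also differed by more than counting error across the table. Whether the genes departed from a common factor was not tested.

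How closely a gene followed the others is given as a description. Residuals were taken from the mean deviation of all the genes, the gene itself included, which makes them smaller. Bnc1 lay closest to that mean, with a residual SD of 0.046 on the log2 scale. Its counting error was 0.051, and no reading is made of the lower residual SD, since Bnc1 is part of the mean. Upk1b, Upk3b and Lrrn4 had residual SDs of 0.086, 0.096 and 0.098. The residual SD was largest for Krt18 at 0.24, Gpm6a at 0.21 and Wt1 at 0.20, against counting errors of 0.12, 0.06 and 0.051. Per unit of the mean of the other 9 genes, Wt1 changed by 0.54, Gpm6a by 1.39 and Krt18 by 1.44, as slopes on the log2 scale.

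**Figure D3:**
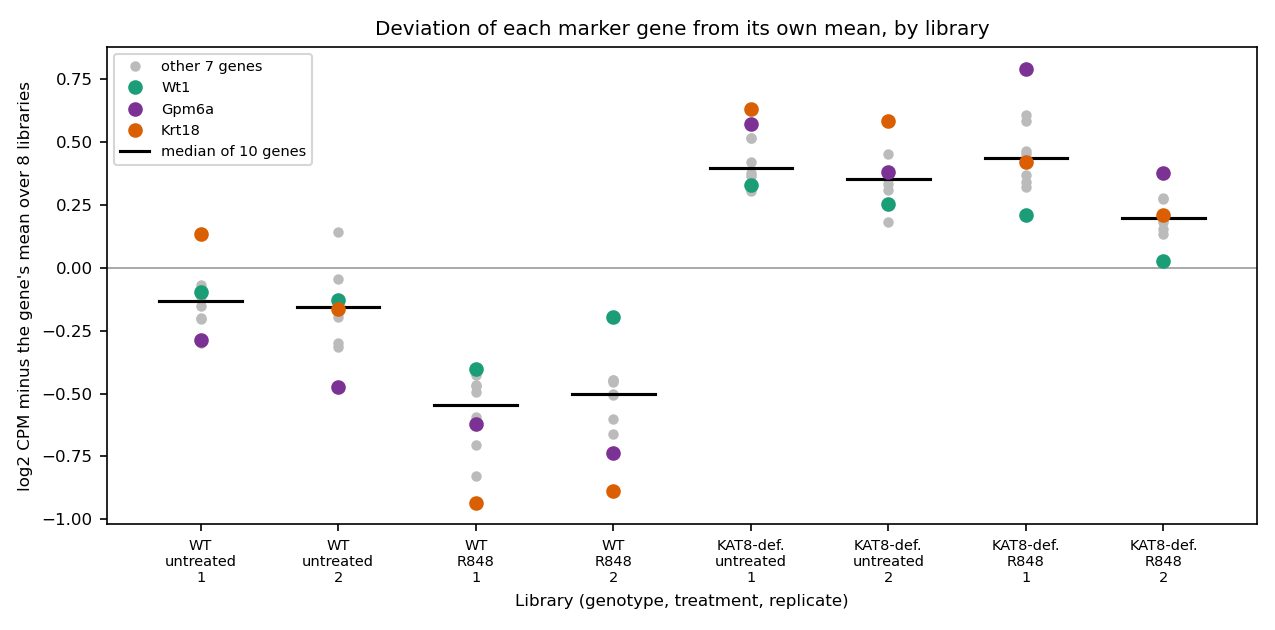
Deviation of each gene's log2 CPM from its own mean over the 8 libraries (vertical axis), by library, with Wt1, Gpm6a and Krt18 in colour, the other 7 genes in grey and the median of the 10 genes as a line. The medians run from -0.55 to 0.44; Wt1 stays nearest to 0 under R848, and Krt18 is the lowest gene in both WT libraries given R848.

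Ratios of read counts between pairs of the genes need no scaling between libraries. The pairs were chosen after their values were seen. Upk1b to Lrrn4, a pair of membrane protein genes, kept a ratio between 0.384 and 0.456 in all 8 libraries. Gpm6a to Wt1 was at 0.682 and 0.609 in untreated WT cells, 0.668 and 0.533 in WT cells given R848, 0.92 and 0.847 in KAT8-deficient cells left untreated, and 1.16 and 0.989 in KAT8-deficient cells given R848. No WT value reached the lowest KAT8-deficient one. On the log2 scale the replicates were at -0.55 and -0.71, -0.58 and -0.91, -0.12 and -0.24, and 0.22 and -0.016 in the same order of groups, so replicates of WT cells given R848 also stood apart from each other.

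Krt18 to Wt1 was at 0.217 and 0.179 in untreated WT cells and at 0.127 and 0.114 in WT cells given R848, while the 4 KAT8-deficient libraries lay between 0.209 and 0.231. The WT libraries given R848 thus stood below all others for this pair. The same held for Krt18 to Upk3b, at 0.0267 and 0.0279 in WT cells given R848 and between 0.0369 and 0.0481 in the other 6 libraries. Krt8 to Krt18, the genes of 1 keratin pair, ranged from 1.37 to 2.12, and its values in WT libraries (1.38 and 2.02 untreated, 1.76 and 2.12 with R848) ranged more widely than those in KAT8-deficient libraries, which lay between 1.37 and 1.55. The counting error of its log2 value was also larger there, at 0.14 to 0.21 against 0.12 to 0.14.

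**Figure D4:**
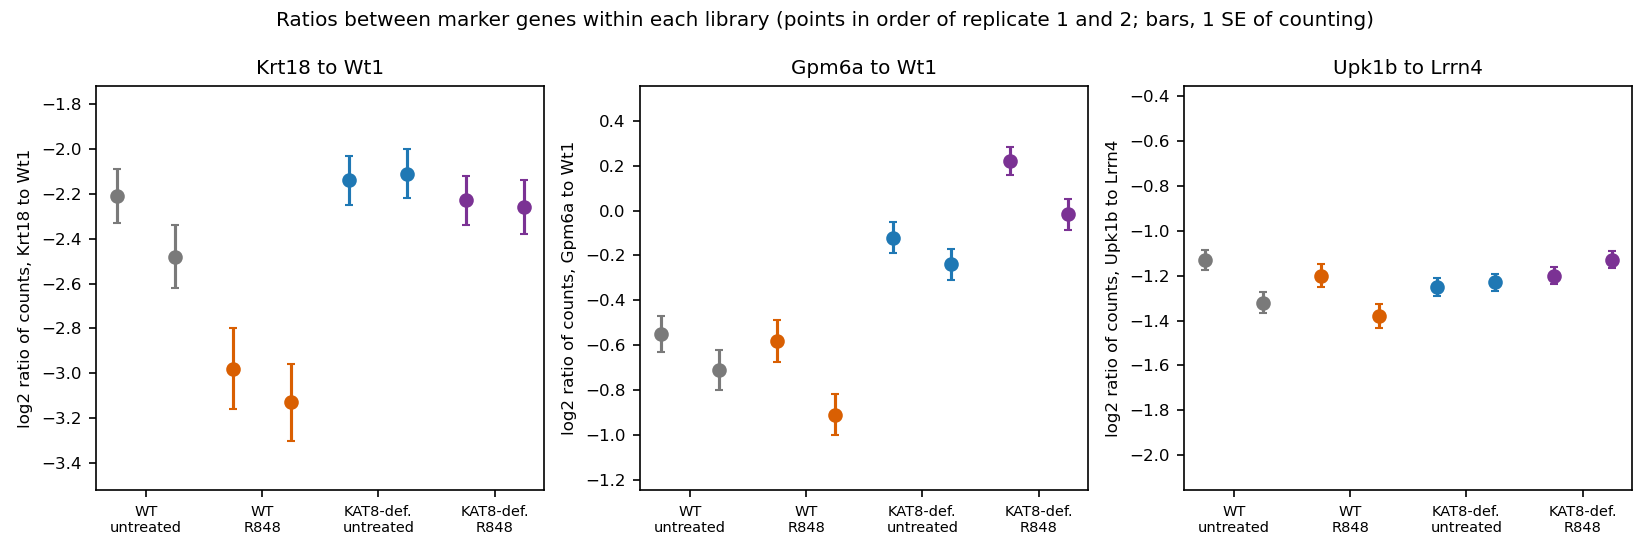
Log2 ratio of read counts for 3 pairs of genes (vertical axis, each panel spanning the same range of log2 units) in the 8 libraries, ordered by group and replicate, with bars for 1 SE of counting. Upk1b to Lrrn4 stays between -1.38 and -1.13, Gpm6a to Wt1 is higher in all 4 KAT8-deficient libraries than in the 4 WT libraries, and Krt18 to Wt1 is lowest in the WT libraries given R848.

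Replicates of a group offer a comparison that no contrast between groups uses. In KAT8-deficient cells given R848, all 10 genes were lower in replicate 2 than in replicate 1, by a median of -0.23 on the log2 scale and by values from -0.45 to -0.092, whereas 48.4% of the tested genes were lower there, with a median of 0.0014. In the same pair of libraries the other mesothelial markers were lower for 7 of 10 (median -0.28), the fibroblast and stromal markers for 7 of 10 (median -0.11), the contractile markers for 2 of 5 (median 0.0068) and the macrophage markers for 3 of 8 (median 0.069). The medians of the 10 genes were nearer to 0 in the other groups. Replicate 2 was lower for 7 of 10 genes in untreated WT cells (median -0.036), 4 of 10 in WT cells given R848 (median 0.049) and 7 of 10 in untreated KAT8-deficient cells (median -0.07). Other lists differed between replicates in that last group, where replicate 2 was lower for 5 of 5 contractile markers (median -0.22) and 5 of 5 other keratin genes (median -0.54).

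A further list of 12 mesothelial markers gave values for genes that are not among the 10. This list and the lists of other markers below were also chosen with earlier results of these data known. Their p-values and counts of calls are therefore a description and no independent check on the 10 genes. The list holds Msln (mesothelin, a surface glycoprotein), Muc16, Rspo1 (a secreted WNT agonist), Nkain4, Cldn15 (a tight junction claudin), Aldh1a2 (which makes retinoic acid), Calb2 (calretinin), Podxl (a sialomucin), Efemp1, Tbx18, Pdpn (podoplanin) and Cdh3 (P-cadherin). Muc16 was not analysed here, Calb2 was at 0 in all 8 libraries, which allows up to 0.14 to 0.163 CPM (3 counts), and the other 10 were tested. Calretinin is among the defining proteins of mesothelial cells in pathology.

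Under R848, 8 of the 10 tested were higher in KAT8-deficient cells in edgeR's test (8.14% of all tested genes were) and 0 were lower, with a median log2 difference of 1.02. Msln was at 4.32 and 4.49 CPM in WT cells and at 15.2 and 9.86 in KAT8-deficient cells given R848, which is 1.51 on the log2 scale (SE 0.28, edgeR adjusted p = 0.00883). Cldn15 was at 3.47 and 3.17 against 13.6 and 8.73 CPM (log2 difference 1.75, SE 0.25, edgeR adjusted p = 0.0028). Podxl was at 25.8 and 29.8 against 71.9 and 54.1 CPM (1.18, SE 0.14, edgeR adjusted p = 0.00107), and Cdh3 at 47.7 and 51.7 against 81.2 and 81.9 CPM (0.71, SE 0.069, edgeR adjusted p = 0.00061). Like the 10 genes, these had no overlap between genotypes.

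The other 4 that rose were Aldh1a2, Efemp1, Rspo1 and Nkain4, by 0.57, 1.16, 1.03 and 1.00 on the log2 scale (edgeR adjusted p = 0.00218, 0.0077, 0.0389 and 0.00737). Tbx18, a T-box factor of heart and mesothelial development, and Pdpn were not called, at -0.36 (SE 0.28) and -0.092 (SE 0.068). Cldn15, Aldh1a2, Podxl and Cdh3 kept their call whichever library was left out. Without WT R848 replicate 1 the call was lost for Msln, Rspo1, Nkain4 and Efemp1 (edgeR adjusted p = 0.0677, 0.0926, 0.0676 and 0.0564). Without WT R848 replicate 2 it was lost for Msln, Rspo1 and Efemp1 (0.0535, 0.187 and 0.0512), and without KAT8-deficient R848 replicate 1 for Msln and Rspo1 (0.0514 and 0.197). Rspo1 also lost it without either replicate of the untreated groups, with edgeR adjusted p from 0.0572 to 0.064.

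Between untreated genotypes, all 10 tested genes of this list had a log2 difference above 0, with a median of 0.50, and 3 rose, against 2.91% of all tested genes: Cdh3 (0.51, SE 0.068, edgeR adjusted p = 0.00795), Aldh1a2 (0.39, SE 0.078, edgeR adjusted p = 0.0309) and Nkain4 (0.82, SE 0.18, edgeR adjusted p = 0.0389). Msln stood at 5.68 and 4.67 CPM in WT and 13.8 and 8.40 in KAT8-deficient cells without passing (1.09, SE 0.28, edgeR adjusted p = 0.0672). Each of these calls rested on the number of libraries. Cdh3 lost it without replicate 1 of either group (edgeR adjusted p = 0.0531 for WT and 0.0744 for KAT8-deficient cells). Aldh1a2 and Nkain4 lost it without any of the 4 compared libraries or of the 2 WT libraries given R848 (edgeR adjusted p = 0.0525 to 0.199 and 0.0572 to 0.175). Nkain4 also lost it with the replicate number as a block (0.0575).

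With R848 in WT cells, 3 of these 10 genes fell and 1 rose, where 6.7% of the tested genes were called lower and 6.94% higher. Cldn15 went from 7.78 and 7.11 to 3.47 and 3.17 CPM (-1.17, SE 0.26, edgeR adjusted p = 0.0196), Podxl from 47.3 and 49.6 to 25.8 and 29.8 (-0.80, SE 0.14, edgeR adjusted p = 0.00598) and Cdh3 from 62.1 and 65.7 to 47.7 and 51.7 (-0.36, SE 0.069, edgeR adjusted p = 0.00961). Pdpn went the other way, from 284 and 283 to 391 and 350 CPM (0.39, SE 0.068, edgeR adjusted p = 0.00684). Without WT R848 replicate 1 these calls were lost (edgeR adjusted p = 0.0892, 0.0562, 0.0877 and 0.056 in that order), and Cldn15 also lost it without any of the other 3 libraries compared (0.0637 to 0.106). In KAT8-deficient cells R848 gave 0 calls in this list in edgeR and in DESeq2's Wald test and 1 (Cdh3) at an unadjusted p under 0.05, with a median of -0.075. The difference between the 2 responses was called for 0 of these 10 genes in edgeR, for 3 at an unadjusted p under 0.05 (Cldn15, Podxl and Pdpn) and for 1 (Podxl) in DESeq2's Wald test, where 5 had no adjusted value. The share of all tested genes at the unadjusted threshold was not taken here either. In edgeR the largest such values were those of Cldn15 (1.25, SE 0.34, edgeR adjusted p = 0.185) and Podxl (0.86, SE 0.19, edgeR adjusted p = 0.106).

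Markers of other epithelia were at or near 0 in most cases. Of 3 other uroplakin genes, Upk2 and Upk3a were at 0 in all 8 libraries, and Upk1a reached at most 0.236 CPM. Of 8 epithelial markers, Cldn4 and Esrp1 were at 0 in all libraries, Epcam lay between 0 and 0.326 CPM, and only Cdh1 (E-cadherin) passed the filter, at 0.481 to 1.72 CPM with no call. Of 11 other keratin genes, Krt4, Krt5, Krt6a and Krt20 were at 0 in every library and 5 were tested. Krt14, a keratin of basal cells in stratified epithelia, was at 5.60 and 4.44 CPM in WT and 10.3 and 9.67 in KAT8-deficient cells given R848 (0.99, SE 0.21, edgeR adjusted p = 0.0165, lost without WT R848 replicate 1 or 2 or KAT8-deficient R848 replicate 1). Krt15 was also called there, at 0.107 and 0.0511 against 0.565 and 0.377 CPM, so the WT libraries lay below the level of 3 counts, and 11 of 12 alternatives lost this call.

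Among genes of desmosomes and keratin linkers, 3 of 7 tested rose in KAT8-deficient cells under R848, where 8.14% of all tested genes were called higher. Jup (plakoglobin, a junction protein of both desmosomes and adherens junctions) was at 32.6 and 35.6 against 60.0 and 51.9 CPM (0.71, SE 0.11, edgeR adjusted p = 0.00313). Dsg2, a desmosomal cadherin, was at 18.0 and 16.3 against 22.7 and 26.1 CPM (0.51, SE 0.12, edgeR adjusted p = 0.0217), and with R848 in WT cells it rose (0.61, SE 0.12, edgeR adjusted p = 0.0122) where Jup fell (-0.54, SE 0.11, edgeR adjusted p = 0.0108). Ppl (periplakin) was the third, at 0.853 and 0.306 against 3.35 and 1.79 CPM (2.15, SE 0.54, edgeR adjusted p = 0.0339), a call lost in 5 of 12 alternatives, WT R848 replicate 1 or 2 left out among them. Dsg2 lost its genotype call without WT R848 replicate 1 or 2 or KAT8-deficient R848 replicate 2, and Dsg2 and Jup lost their R848 calls without untreated WT replicate 2 or WT R848 replicate 1.

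Markers of other cell types that such cultures could hold were read in the same libraries. The summed level of the 10 genes was 580 to 580 CPM in untreated WT, 466 to 473 in WT with R848, 828 to 857 in untreated KAT8-deficient and 755 to 883 in KAT8-deficient cells with R848. The 11 fibroblast and stromal markers summed to 2930 to 3430, 2460 to 2680, 4070 to 4250 and 3660 to 3770 CPM in the same order. Of 10 tested, 7 were called higher in untreated KAT8-deficient cells and 8 under R848, against 2.91% and 8.14% of all tested genes. The median log2 differences of these tested markers were 0.47 and 0.52. Col3a1, a fibrillar collagen, differed by 1.17 under R848 (SE 0.12, edgeR adjusted p = 0.000684) and Lum (lumican) by 1.5 (SE 0.15, edgeR adjusted p = 0.000638). These calls under R848, with those of Dcn and Pdgfrb, held whichever library was left out, and the other 4 (Col1a2, Pdgfra, Postn and Cxcl12) were lost without WT R848 replicate 1. Each of the 7 untreated calls was lost without at least 1 of the 4 compared libraries. Col1a1 was not called in either state (0.18, SE 0.17, untreated and 0.44, SE 0.17, under R848), and neither was Thy1 (-0.015, SE 0.13, and -0.053, SE 0.13). With R848 in WT cells 3 of the tested markers were called lower and 1 higher, where 6.7% and 6.94% of all tested genes were. The 1 called higher was Pdgfra (0.32, SE 0.067, edgeR adjusted p = 0.0155), a call lost without any 1 of the 4 compared libraries. Lepr was near 0, at up to 0.0466 CPM.

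The 5 contractile markers summed to 432 to 453, 351 to 360, 605 to 687 and 461 to 472 CPM. Of these, 3 were called higher in untreated KAT8-deficient cells and 4 under R848, against 2.91% and 8.14% of the tested genes. Only Acta2 (smooth muscle actin) under R848 kept its call whichever library was left out. The contractile markers had median log2 differences between genotypes of 0.58 untreated and 0.44 under R848, against 0.52 and 0.87 for the 10 genes. With R848 in WT cells the median was -0.31, against -0.35 for the 10 genes. The contractile markers differed from the 10 genes in KAT8-deficient cells given R848, where 2 of 5 fell (Acta2 by 0.44 and Tagln by 0.52 on the log2 scale, edgeR adjusted p = 0.0413 and 0.03), with a median of -0.52 and 0.135% of the tested genes called lower. Both calls were lost without replicate 1 or 2 of the KAT8-deficient cells given R848, among other libraries, and that of Acta2 also with the replicate block. The 7 endothelial markers summed to 98.9 to 118, 78.5 to 81.1, 116 to 126 and 112 to 120 CPM, but the defining genes Pecam1, Tek and Emcn did not exceed 0.33 CPM and between genotypes only Kdr and Vwf were called, higher under R848. Both calls were lost without WT R848 replicate 1 or 2, that of Kdr also without replicate 1 and that of Vwf without replicate 2 of the KAT8-deficient cells given R848. Cdh5 (VE-cadherin), also tested, lay the other way without a call: it was at 0.978 and 1.36 CPM in WT and 0.682 and 0.214 in KAT8-deficient cells untreated (-1.35, SE 0.48, edgeR adjusted p = 0.16), and at 1.87 and 1.53 against 0.801 and 0.849 CPM under R848 (-1.04, SE 0.41, edgeR adjusted p = 0.135). Its libraries did not overlap between genotypes in either state. Adipocyte markers summed to at most 0.14 CPM, and of the 5 osteoblast markers Ibsp was at 0, Bglap and Sp7 were below the filter, and Alpl was called higher in both genotype comparisons (edgeR adjusted p = 0.0472 and 0.0446), calls that neither the Wald test of DESeq2 nor the replicate block kept.

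The 8 macrophage markers summed to 14800 to 16200 CPM in WT libraries and 8530 to 9630 in KAT8-deficient ones. Lyz2, lysozyme, made up most of that sum, and it was lower in KAT8-deficient cells by 1.04 on the log2 scale untreated and by 1.14 under R848 (edgeR adjusted p = 0.000304 and 0.000143). Without Lyz2, a sum chosen after its values were seen, the markers summed to 3720 to 4070 CPM in WT libraries and 3330 to 3680 in KAT8-deficient ones. Under R848, Csf1r and Adgre1 (the F4/80 antigen) were also lower (-0.39 and -0.41, edgeR adjusted p = 0.00473 and 0.00312) and Fcgr1, an IgG receptor, was higher (1.09, edgeR adjusted p = 0.00148). In untreated cells none of these 3 was called. The part of any of these lists in the differences of the 10 genes was not tested.

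**Figure D5:**
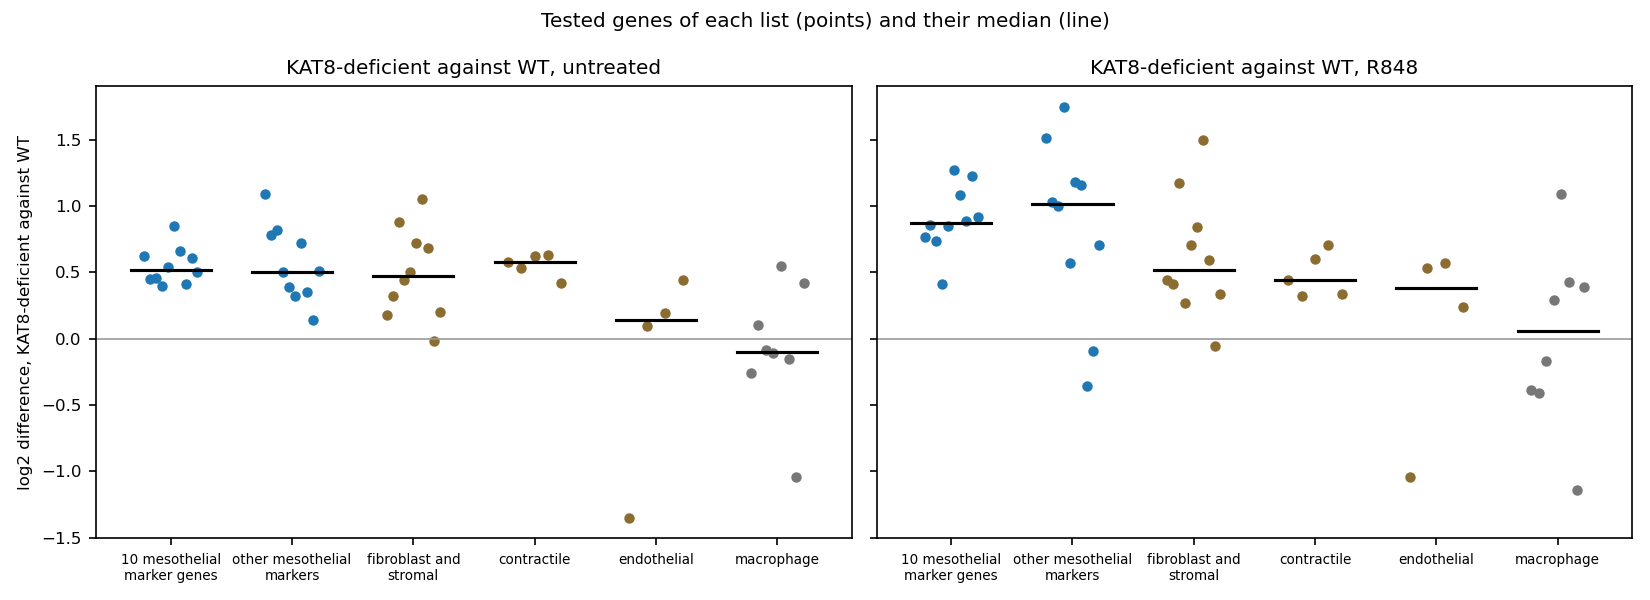
Log2 difference of KAT8-deficient against WT cells (vertical axis) for each tested gene of 6 lists, untreated on the left and under R848 on the right, with the median of each list as a line. The medians of the 10 genes, the other mesothelial markers and the fibroblast markers lie at 0.52, 0.50 and 0.47 untreated and at 0.87, 1.02 and 0.52 under R848, and the macrophage genes lie on both sides of 0.

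As a description of how far a common profile extends, the same share was taken in the other lists with enough counts. It was 89.2% of the sum of squares for the 5 contractile markers, 64.3% for 10 fibroblast and stromal markers, 61.9% for the 10 other mesothelial markers, 40.5% for 4 desmosome and linker genes and 5.37% for the 8 macrophage markers. Each gene is part of the mean of its list, which raises the share more in lists with fewer genes. Shares of lists of unlike size are therefore not on the same footing. The scatter around the common profile was 0.15, 0.26, 0.34, 0.29 and 0.41 on the log2 scale, in the same order of lists, against 0.16 for the 10 genes.

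Among 11308 other genes with at least 2 CPM on average and a proper gene name, the 10 whose log2 CPM most resembled the mean standardised profile of the marker genes over the 8 libraries were Zfp36l1, Bicc1, Thbs2, Maf, Dpp4, Arhgef10, Col3a1, Rasl11a, Ppp2r2b and Gas1. Their correlations ran from 0.998 to 0.991, and 594 genes reached 0.9. Since the libraries fall into 4 groups, this describes 8 points only. Zfp36l1, which encodes an RNA-binding protein that promotes messenger RNA decay, had group means of 64.7, 52.2, 89.6 and 86.3 CPM in untreated WT, treated WT, untreated KAT8-deficient and treated KAT8-deficient cells. Thbs2, a secreted matrix glycoprotein, had 28.6, 18.4, 68.0 and 59.3 CPM, and Dpp4, a surface peptidase, had 7.20, 4.40, 13.4 and 13.3 CPM. Of the other mesothelial markers, Aldh1a2 had a correlation of 0.99 and rank 15, Efemp1 0.981 and rank 47, Msln 0.929 and rank 397, Tbx18 -0.0654 and Pdpn -0.297. Correlations of the tested fibroblast and stromal markers ran from 0.212 for Thy1 to 0.995 for Col3a1, with Lum at 0.982 and rank 44. A high correlation was thus not particular to mesothelial markers.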

How the data were processed

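The deposited table holds whole-number read counts, with a row for each Ensembl gene and a column for each library, as the file headers name them. StringTie 1.3.0, HISAT2 and edgeR on mm10 are named in the submitters' processing notes without their roles. Annotation, strand and counting settings are not stated in the sources used here. The replicates of a group differed by more than counting error (chi-square per degree of freedom 7.65 to 12.35).

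Symbols and positions came from GENCODE M21. Counts were filtered with filterByExpr, scaled by TMM and fitted with edgeR 4.0.16 (R 4.3.3) over all 8 libraries, 1 mean per group, with 4 residual degrees of freedom. Quasi-likelihood p-values are two-sided and Benjamini-Hochberg adjusted over 14040 genes, with a threshold of 0.05. An SE is the absolute log2 difference over the square root of the F statistic. CPM are TMM-scaled counts, RPKM divide them by the summed length of exons, and 3 counts equal 0.14 to 0.163 CPM. Floors cover counting error only. The code was tested on simulated data.

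The 10 genes and all lists were chosen with earlier results of these data known. Named are the 10 genes, every other mesothelial marker, called genes of the other lists, their most abundant genes, the genes at or near 0 that define a list, and the 10 most similar genes. Alternatives were DESeq2 1.42.0 size factors and Wald test, total counts, no filter, the replicate number as a block, fits to only the 4 compared libraries, and leaving out each library.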

Additional observations from a re-analysis of the deposited data

How the results depend on the processing

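The median of the 10 genes was recomputed with DESeq2 size factors, total counts, the replicate block and each library left out. Its direction held in these except with R848 in KAT8-deficient cells, where it ran from -0.17 to 0.062 over the left-out libraries. In the other comparisons leaving out 1 library gave medians of -0.39 to -0.34 (R848 in WT), 0.51 to 0.57 (genotype, untreated), 0.77 to 0.97 (genotype, R848) and 0.20 to 0.51 (difference of responses). Called among the 10 genes were then 2 to 6, 0 to 8 and 8 to 10 in the first 3 of these. Genes called over the whole table were 1916 for R848 in WT, 89 for R848 in KAT8-deficient cells, 600 and 1911 for genotype untreated and under R848, and 32 for the difference of responses. Leaving out 1 library gave 877 to 1846, 2 to 186, 67 to 613, 797 to 1919 and 6 to 211, in that order. Without the filter the second and the last became 274 and 245, with DESeq2's Wald test 238 and 231; with only the 4 libraries compared, the second became 22 and the untreated genotype count 378. The cause was not tested, beyond fewer libraries in the fit. With the replicate number as a block, the replicate block counts were 1875, 73, 531, 1871 and 25, and the called counts of the 10 genes stayed at 5, 0, 7, 10 and 0. Same-numbered libraries did not deviate together over the tested genes (correlations from -0.06 to 0.048). This cannot tell if they shared mice or dishes, which is not stated. Of 600 values of single marker genes under these settings, 561 moved by less than 1 SE, 39 by more, and 13 differed in sign, all for R848 in KAT8-deficient cells or for the difference of responses.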

Other observations

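S100a8, an alarmin of neutrophils and monocytes, had the same count of 105 in 3 libraries of replicate 1 and the same count of 86 in 3 libraries of replicate 2, with 128 and 111 in the WT libraries given R848. It was the only such gene of 11000 with at least 50 counts, and it was chosen after its values were seen.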
